A study of Mus musculus with 12 samples.

Results

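The genes described here are 40 antiviral effectors and sensors known to be induced by type I interferon, measured in whole mouse pancreatic tumours. They were chosen by symbol: every probe of the array whose annotation names a listed gene was taken. This gave 76 of 45281 probes for 38 of the 40 genes, and Herc6 and Ifi44 have no probe of their name in the annotation used here. After a filter on dim probes, 30 of the 40 genes were tested, among 9788 genes in all.

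Syngeneic pancreatic ductal adenocarcinoma cells mixed with Matrigel were implanted surgically into the pancreas of adult female C57BL/6J mice. Once tumours were established, chow carrying either vehicle (Vehicle, 4 tumours) or an inhibitor of the receptor CSF1R (CSF1Ri, 5 tumours) was given for 8 days. All animals were perfused with heparinised saline and the tumours digested with collagenase before total RNA was taken. The labels used here name neither the tumour line nor the inhibitor or its dose. The 9 tumours were read on 12 Illumina arrays, since Vehicle 1, Vehicle 3 and CSF1Ri 1 were hybridised again, with repeat arrays averaged. Values are normalised log2 intensities, given per group as mean ± SD over its 4 or 5 tumours. Differences are CSF1Ri minus Vehicle on the log2 scale.

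Type I interferons signal through the receptor of Ifnar1 and Ifnar2 and the kinases Jak1 and Tyk2 to transcription factors that include Stat2 and Irf9. These bind the interferon-stimulated response element (ISRE) and switch on genes that block viral entry, translation and replication. Interferon gamma, made by T cells and NK cells, acts through its own receptor and Irf1 and induces many of the same genes. In tumours this programme can run in cancer cells, stroma and leukocytes alike. CSF1R is the receptor on which macrophages and their precursors depend. In whole tumours, fewer cells of a type and less RNA per cell cannot be told apart.

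Between 16219 and 17847 probes were detected per array. Csf1r was at 7.46 ± 0.29 in Vehicle and 6.24 ± 0.32 in CSF1Ri tumours (limma adjusted p = 0.0345, a call lost in 12 of 23 alternatives), and the fractalkine receptor gene Cx3cr1 of monocytes and macrophages at 7.27 ± 0.11 and 4.72 ± 0.23, where it was detected on 1 of 6 arrays (limma adjusted p = 1.63e-05). Of 11 tested macrophage markers, 3 passed the test as lower (0.215% of all genes did) and 0 as higher (0% of all genes did). Their list mean ran from 8.12 to 8.58 in Vehicle and from 7.01 to 7.73 in CSF1Ri tumours. Markers of tumour and duct epithelium were present in both groups, with list means of 11.11 ± 0.31 and 11.24 ± 0.25 (9 of 10 tested, with Epcam detected on no array). Acinar enzyme genes, which mark residual pancreas, varied widely, with list means from 10.71 to 12.92 in Vehicle and from 5.39 to 13.28 in CSF1Ri tumours.

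The ISRE was looked for in the promoter sequences of the members, and stretches that hold its core are shown for some of them. RefSeq windows (build GRCm38.p6, 250 bases before to 50 after an annotated start) were at hand for 31 of the 40 genes. The core of the element was searched as GAAA followed, after any 2 bases, by another GAAA, or on the other strand as TTTC with the same spacing. It stood in 14 of the members' 35 windows (40%), each of another gene, against 3.44% of all 32851 windows. The gamma-activated site core TTCNNNGAA, which reads the same on both strands and may overlap the ISRE core, stood in 7 of the 35 (20%), against 8.3% of all windows. A match is a description of letters, not of binding. Capitals mark the ISRE core, with overlapping matches joined, and each stretch is written 5′ to 3′ on the strand of its gene. For Trim21 and Ifitm3 the match lies just past the start, so only a short stretch is given, and a further match in the Ifitm3 window is not shown. Ifit3, Isg15 and Rsad2 were added after their values were seen.
Isg15 (chr4:156200845-156200926, minus strand): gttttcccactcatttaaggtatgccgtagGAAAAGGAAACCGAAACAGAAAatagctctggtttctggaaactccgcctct
Ifit3 (chr19:34583366-34583446, plus strand): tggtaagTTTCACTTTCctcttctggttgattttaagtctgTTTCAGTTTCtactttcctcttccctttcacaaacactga
Oas3 (chr5:120777695-120777764, minus strand): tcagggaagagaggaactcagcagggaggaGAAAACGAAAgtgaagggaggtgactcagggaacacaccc
Rsad2 (chr12:26456533-26456602, minus strand): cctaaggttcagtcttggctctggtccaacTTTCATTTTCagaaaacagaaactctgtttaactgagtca
Ifitm2 (chr7:140955968-140956037, minus strand): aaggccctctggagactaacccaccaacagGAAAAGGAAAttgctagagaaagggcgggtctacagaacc
Ifitm3 (chr7:141010726-141010749, minus strand): aattcagGAAAAGGAAActtctga
Trim21 (chr7:102565447-102565476, minus strand): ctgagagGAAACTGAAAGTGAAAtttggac
The windows of Cmpk2, Dtx3l, Ifi35 and Ifitm1 hold no such core. Among tested members with a window, the core stood in 5 of the 8 whose limma unadjusted p for CSF1Ri against Vehicle was under 0.05 and in 6 of the other 15. Usp18, Zbp1, Oas2 and Parp14, also under 0.05, have no window. Oas3, among the 5, was detected on 0 of 6 Vehicle arrays. The difference between these shares was not tested.

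Most tested antiviral genes had higher mean levels in CSF1Ri than in Vehicle tumours, and 0 of 30 passed the test across all genes in either direction. For comparison, 0% of the 9788 genes were called higher and 0.215% lower. At a limma unadjusted p under 0.05, 12 of the 30 members were higher (40%) and 0 lower, where 3.73% of all genes were higher and 3.80% lower. The log2 fold change was above 0 for 26 of 30 members (86.7%, against 53.0% of all genes) and at least 0.5 for 11 of 30 (36.7%, against 1.86%). The median log2 fold change of the 30 was 0.40, from -0.29 (Dhx58) to 1.17 (Zbp1), and that of all genes was 0.01. In 3 members, Usp18, Zbp1 and Trim21, the lowest CSF1Ri tumour exceeded the highest Vehicle tumour, which held for 1.46% of all genes, and 0 members had the opposite arrangement, which 1.42% of all genes had. Some of the 30 passed the filter on dim probes mainly through the CSF1Ri arrays. Oas3 was detected on 0 of 6 Vehicle and 5 of 6 CSF1Ri arrays and Rtp4 on 1 and 5. With no filter, 13 of 38 members with a probe were higher at an unadjusted p under 0.05 (3.16% of all genes), and their median was 0.20. Of the 49 kept probes of the members, 19 were higher at an unadjusted p under 0.05, against 4.18% of all kept probes, and 0 passed the adjusted test.

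**Figure D1:**
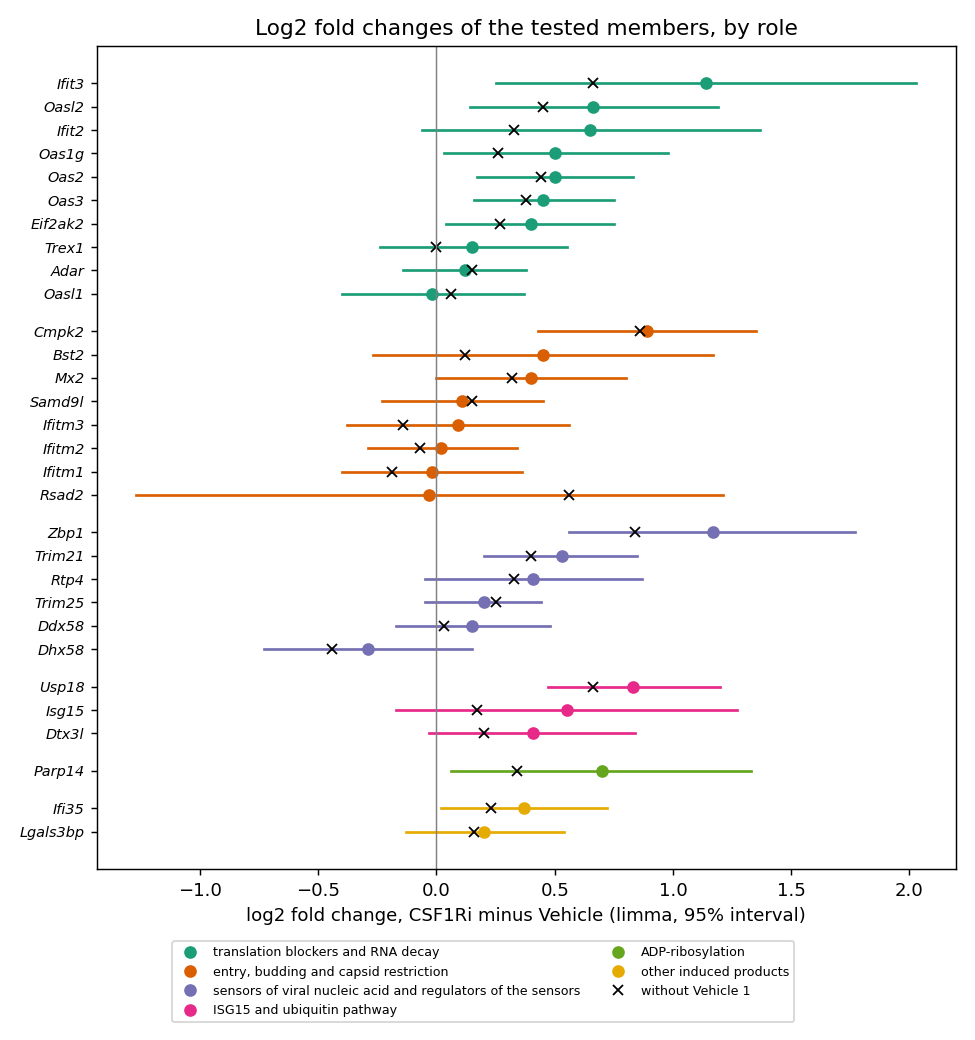
Log2 fold change (CSF1Ri minus Vehicle, x axis) of the 30 tested members, grouped by role, with the 95% interval of the limma fit as a line, and a cross for the value without Vehicle 1. Most points lie right of 0, from -0.29 (Dhx58) to 1.17 (Zbp1), and most crosses lie nearer to 0 than the points.

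One Vehicle tumour weighs on these differences. Vehicle 1 was the lowest of the 9 tumours for 22 of the 30 members, against 11.5% of all genes. The mean over the 30 members was 7.65 in Vehicle 1, 8.21 in Vehicle 2, 8.10 in Vehicle 3 and 8.22 in Vehicle 4. The CSF1Ri tumours were at 8.52, 8.37, 8.51, 8.50 and 8.28 in order of number, so all 5 lay above all 4 Vehicle tumours, CSF1Ri 5 least far. Without Vehicle 1 the median log2 fold change fell from 0.40 to 0.26. At a limma unadjusted p under 0.05, 8 of 30 members were then higher, against 3.83% of all genes. At that level 1 member, Dhx58, was lower by its brightest probe. With all 9 tumours, 3.80% of all genes were lower at that level, and the other kept probes of Dhx58 gave 0.01 and 0.13. The spread was wider among Vehicle tumours for 24 of the 30 members, against 42.9% of all genes. The median SD of a member was 0.33 in Vehicle and 0.23 in CSF1Ri tumours, and 0.20 and 0.23 over all genes.

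Vehicle 1 also stood apart in markers of other cells. Its neutrophil list mean was 9.81, against 7.04 to 8.61 in the other Vehicle tumours and 5.81 to 8.01 in CSF1Ri tumours (8 of 10 markers tested). Its erythroid mean was 10.83 (4 of 8 markers tested), against 7.15 to 9.72 in the other 8 tumours. Its T cell mean was the lowest, 6.60 against 7.16 to 8.24 (6 of 10 tested, with Cd8a detected on no array). The part of these cells in the antiviral levels was not tested. The 2 arrays of Vehicle 1 differed by a median of 0.15 over the 30 members, those of Vehicle 3 by 0.15 and those of CSF1Ri 1 by 0.23.

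**Figure D2:**
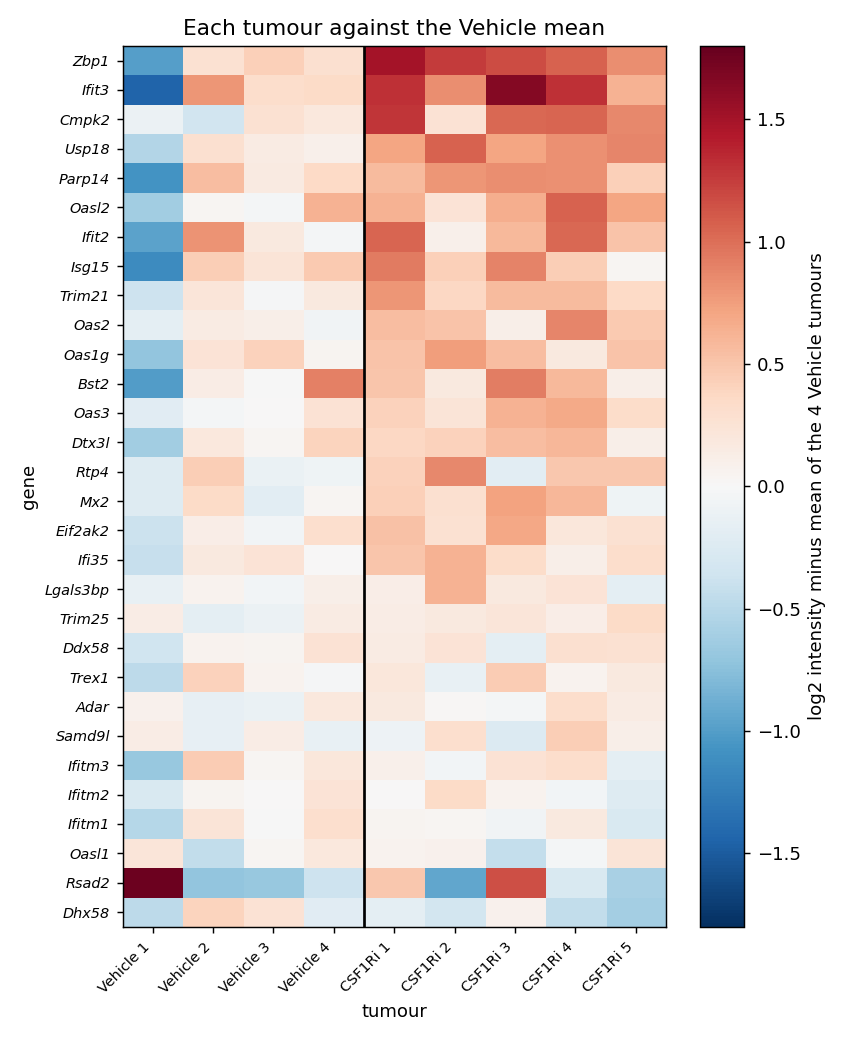
Normalised log2 intensity of each tested member (rows, ordered by log2 fold change) in each tumour (columns) minus the mean of the 4 Vehicle tumours. Vehicle 1 is below the Vehicle mean for most members and far above it for Rsad2, and the CSF1Ri columns are above it for most members in the upper part of the plot.

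In the ISG15 and ubiquitin group, 3 of 5 genes were tested, with a median log2 fold change of 0.55, or 0.20 without Vehicle 1. The gene with the smallest p among the members was Usp18 (Entrez Gene 24110), which encodes the protease that removes ISG15 from proteins and dampens signalling at the type I interferon receptor. Usp18 was at 7.30, 8.12, 7.98 and 7.92 in Vehicle 1 to 4 and at 8.54, 8.89, 8.54, 8.65 and 8.71 in CSF1Ri 1 to 5. The groups did not overlap, and Vehicle 1 was lowest. The log2 fold change was 0.83 (SE 0.17, 95% interval 0.47 to 1.20, limma adjusted p = 0.119). It was 0.66 without Vehicle 1 (limma adjusted p = 0.0872). With all arrays in the fit and the tumour as a random block it passed the test (0.85, limma adjusted p = 0.0281). That fit enters the repeat arrays of Vehicle 1, Vehicle 3 and CSF1Ri 1 singly. It called 4 genes higher and 41 lower, against 0 and 21 with repeat arrays averaged. The second kept probe of Usp18 gave 0.80. Isg15 itself, the ubiquitin-like modifier, was at 8.36 ± 0.76 and 8.91 ± 0.37, with a log2 fold change of 0.55 (limma adjusted p = 0.807) that was 0.17 without Vehicle 1. Dtx3l, a ubiquitin ligase that works with Parp9, had 0.41 (limma adjusted p = 0.697, and 0.20 without Vehicle 1) by its brighter probe and 0.00 by the other.

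The sensors of viral nucleic acid and their regulators held both the highest and the lowest log2 fold change of the set. Of 7 such genes 6 were tested, 2 were higher at an unadjusted p under 0.05, against 3.73% of all genes, and their median was 0.30. Zbp1 (Entrez Gene 58203) encodes a receptor for Z-form nucleic acid that can trigger necroptosis. Zbp1 was at 6.12, 7.38, 7.54 and 7.40 in Vehicle and at 8.61, 8.37, 8.29, 8.17 and 7.94 in CSF1Ri tumours. The groups did not overlap, and the log2 fold change was 1.17 (SE 0.27, 95% interval 0.56 to 1.77, limma adjusted p = 0.180). Without Vehicle 1 it was 0.84 (limma adjusted p = 0.0819). All 3 probes of Zbp1 were kept, and the other ones gave 0.76 and 0.65. Trim21 (Entrez Gene 20821), an antibody receptor inside the cell and ubiquitin ligase, was at 6.63, 7.22, 6.98 and 7.18 against 7.79, 7.37, 7.57, 7.57 and 7.36. CSF1Ri 5, the lowest of its group, still lay above Vehicle 2, and the log2 fold change was 0.53 (SE 0.15, limma adjusted p = 0.295). Its second kept probe, detected on 1 of 6 Vehicle and 5 of 6 CSF1Ri arrays, gave 0.41.

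The RIG-I-like receptors are helicases that sense viral RNA in the cytosol. Dhx58, which encodes LGP2, a regulator of the other sensors of this class, was at 5.36, 6.23, 6.09 and 5.63 in Vehicle and at 5.66, 5.50, 5.91, 5.39 and 5.22 in CSF1Ri tumours. The groups overlapped, and its log2 fold change of -0.29 was the lowest of the set (SE 0.20, limma adjusted p = 0.872, and -0.44 without Vehicle 1). Its other kept probes gave 0.01 and 0.13, so the probes disagree in sign. Ddx58, which encodes RIG-I, was at 5.15 ± 0.26 and 5.31 ± 0.19 (0.15, limma adjusted p = 0.923, and 0.03 without Vehicle 1). Ifih1, which encodes MDA5, was detected on 0 of 12 arrays by its 1 probe. Trim25, the ligase that acts on RIG-I, had 0.20 (limma adjusted p = 0.766). Rtp4, an interferon-induced regulator of the response, was near background, at 4.70 ± 0.30 and 5.11 ± 0.38 (0.41, limma adjusted p = 0.725).

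A group of 12 genes holds mostly those that block translation or degrade RNA, with the nucleic acid enzymes Adar and Trex1 added. Of these, 10 were tested, 6 were higher at an unadjusted p under 0.05 (3.73% of all genes were), and their median log2 fold change was 0.48. Without Vehicle 1 these values were 3 genes (3.83% of all genes) and 0.30. The IFIT proteins bind foreign RNA and stop its translation. Ifit3 (Entrez Gene 15959) had the second highest log2 fold change of the set, 1.14 (SE 0.40, limma adjusted p = 0.468). Its levels were 6.81, 9.04, 8.56 and 8.59 in Vehicle and 9.56, 9.08, 9.90, 9.56 and 8.87 in CSF1Ri tumours. CSF1Ri 5 lay below Vehicle 2, so the groups overlapped, and without Vehicle 1 the value was 0.66. Its other kept probe gave 0.85, and whether these probes also bind the transcript of the near-identical copy Ifit3b was not tested. Ifit2, its neighbour on the chromosome, was at 6.43 ± 0.73 and 7.08 ± 0.40 (0.65, limma adjusted p = 0.714, and 0.33 without Vehicle 1), and its other kept probe gave 0.28. Ifit1 was detected on 0 of 12 arrays by its 1 probe, at 4.30 and 4.32.

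The oligoadenylate synthetases make the messenger that activates RNase L, which degrades RNA. Oas2 was at 6.01, 6.34, 6.30 and 6.13 in Vehicle and at 6.75, 6.70, 6.30, 7.07 and 6.66 in CSF1Ri tumours. Only CSF1Ri 3 fell within the Vehicle range, and the log2 fold change was 0.50 (SE 0.15, limma adjusted p = 0.357). Without Vehicle 1 it was 0.44.

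Oas3 lies beside Oas2 in the genome. It was at 4.30, 4.48, 4.51 and 4.77 in Vehicle and at 4.93, 4.74, 5.13, 5.19 and 4.84 in CSF1Ri tumours, with a log2 fold change of 0.45 (limma adjusted p = 0.337). The groups overlapped only where CSF1Ri 2 lay just below Vehicle 4. Since it was not detected on any Vehicle array, the ratio is only a bound, at least 1.13-fold higher in CSF1Ri tumours. The second Oas3 probe was detected on 0 of 12 arrays.

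Oas1g, which encodes the smaller synthetase, was at 6.79, 7.74, 7.92 and 7.55 in Vehicle and at 8.02, 8.25, 8.06, 7.67 and 8.02 in CSF1Ri tumours. The groups overlapped at CSF1Ri 4, and the log2 fold change was 0.50 (limma adjusted p = 0.619, and 0.26 without Vehicle 1). Its other kept probe gave 0.14. The probe of its near-identical neighbour Oas1a was detected on 0 of 12 arrays, and cross-hybridisation between the copies was not tested.

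The synthetase-like genes Oasl2 and Oasl1 are neighbours. Oasl2 was at 7.89, 8.56, 8.49 and 9.14 in Vehicle and at 9.15, 8.76, 9.18, 9.58 and 9.23 in CSF1Ri tumours. CSF1Ri 2 lay below Vehicle 4, and the log2 fold change was 0.66 (SE 0.24, limma adjusted p = 0.470, with 0.67 by the second probe). Oasl1, which represses translation of the Irf7 messenger RNA in mice, was at 8.02 ± 0.30 and 8.00 ± 0.25. Its 3 kept probes gave -0.02, -0.04 and 0.39 (limma adjusted p over kept probes = 0.999, 0.989 and 0.542). The difference between Oasl2 and Oasl1 was not tested.

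Eif2ak2 encodes PKR, the kinase that halts translation on double-stranded RNA. Its levels were 8.44, 8.94, 8.77 and 9.12 in Vehicle and 9.35, 9.09, 9.52, 9.02 and 9.10 in CSF1Ri tumours. CSF1Ri 2, 4 and 5 lay below Vehicle 4, and the log2 fold change was 0.40 (limma adjusted p = 0.564, and 0.27 without Vehicle 1). Other products keep the cell's own nucleic acids from being sensed. Adar, the RNA-editing deaminase, had 0.12 (95% interval -0.14 to 0.38, limma adjusted p = 0.923), and Trex1, a DNA exonuclease, 0.15 (-0.24 to 0.55, limma adjusted p = 0.952, and 0.00 without Vehicle 1). The other kept probes of Adar gave 0.11 to 0.29, and that of Trex1 gave -0.23, opposite in sign.

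**Figure D3:**
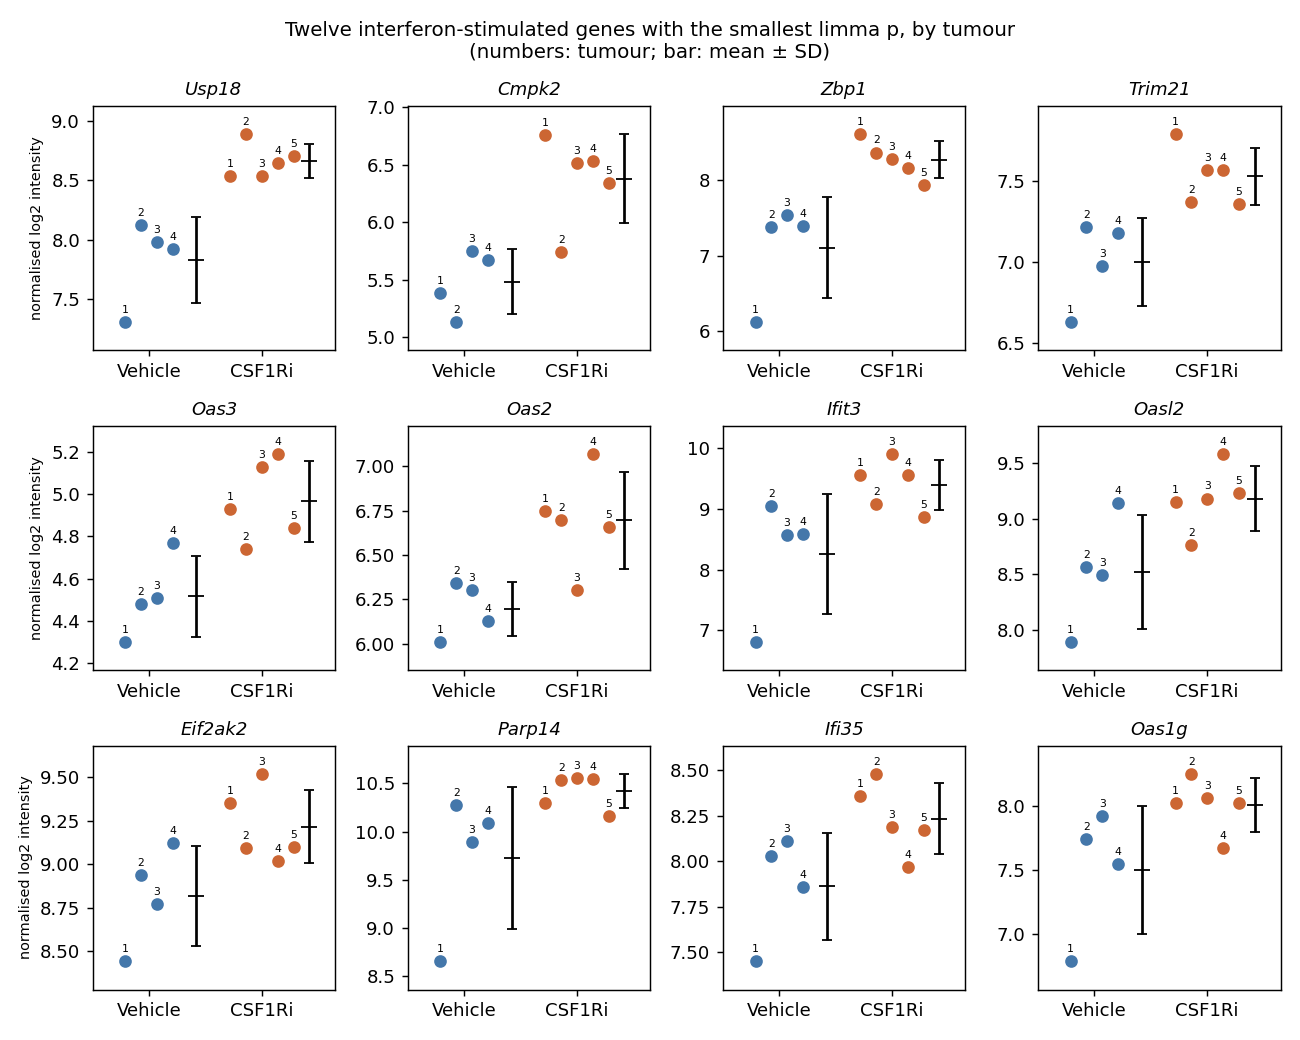
Normalised log2 intensity (y axis, its range set for each gene) of the 12 members with the smallest limma p in each tumour (numbered points), with the group mean and SD as a bar. The groups are apart for Usp18, Zbp1 and Trim21, and Vehicle 1 is the lowest point in every panel but that of Cmpk2, where Vehicle 2 is.

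Cmpk2 and Rsad2 lie next to each other, and the latter encodes viperin, which makes a chain-terminating nucleotide that stops viral polymerases. Cmpk2 (Entrez Gene 22169), a mitochondrial nucleotide kinase that supplies this step, was at 5.38, 5.13, 5.75 and 5.67 in Vehicle and at 6.76, 5.74, 6.51, 6.53 and 6.34 in CSF1Ri tumours. Only CSF1Ri 2 fell within the Vehicle range, just under Vehicle 3, and the log2 fold change was 0.89 (SE 0.21, 95% interval 0.43 to 1.35, limma adjusted p = 0.177). Without CSF1Ri 2 it passed the test (1.05, limma adjusted p = 0.0497). The value was 0.86 without Vehicle 1, which was not its lowest tumour. With the larger offset of 50, which shrinks differences of dim probes, it was 0.50.

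Rsad2 was at 8.40, 5.92, 5.95 and 6.26 in Vehicle and at 7.12, 5.69, 7.79, 6.35 and 6.05 in CSF1Ri tumours, so Vehicle 1 was its highest tumour. The log2 fold change was -0.03 with a wide interval (-1.27 to 1.21, limma adjusted p = 1.00), and it was 0.56 without Vehicle 1. The 3 tumours with the highest Rsad2, Vehicle 1, CSF1Ri 3 and CSF1Ri 1, also had the highest erythroid list means, 10.83, 9.72 and 8.96, with 8.56 next in Vehicle 4. The part of blood cells in this level was not tested. Cmpk2 and Rsad2 have 1 probe each.

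Of the 10 genes that act on virus entry, release and genome copying, Cmpk2 and Rsad2 included, 8 were tested, 1 was higher at an unadjusted p under 0.05 (3.73% of all genes were), and their median log2 fold change was 0.10. The IFITM proteins block fusion of virus with endosomal membranes, and their probes were the brightest of the set, which does not rank the transcripts. Ifitm1 was at 12.53, 13.27, 13.03 and 13.34 in Vehicle and at 13.09, 13.07, 12.97, 13.22 and 12.76 in CSF1Ri tumours (-0.02, 95% interval -0.40 to 0.36). Its other kept probes gave -0.32, at 12.56 and 12.24, and -0.14 (limma adjusted p over kept probes = 0.777 and 0.981). The first of these values is below the -0.29 of the Dhx58 probe that stood for its gene. Ifitm2 was at 12.33, 12.65, 12.60 and 12.84 against 12.60, 12.94, 12.67, 12.55 and 12.37 (0.02, 95% interval -0.29 to 0.34). Ifitm3 was at 12.18, 13.32, 12.89 and 13.06 against 12.95, 12.81, 13.12, 13.17 and 12.69 (0.09, 95% interval -0.38 to 0.56). All 3 overlapped between the groups with Vehicle 1 lowest, and the signs of all 3 changed under at least 1 alternative. Bst2 encodes tetherin, which holds budding virus at the cell surface and also marks plasmacytoid dendritic cells. Bst2 was at 9.54 ± 0.78 in Vehicle tumours, with an SD of 0.33 in CSF1Ri tumours (0.45, limma adjusted p = 0.876, and 0.12 without Vehicle 1).

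The Mx proteins are GTPases that trap viral capsids, and common laboratory mouse strains including C57BL/6 carry defective Mx genes. Mx2 was dim, at 4.89 ± 0.27 and 5.28 ± 0.31, detected on 4 of 6 Vehicle and 6 of 6 CSF1Ri arrays (0.40, limma adjusted p = 0.671). The probe of Mx1 was detected on 3 of 12 arrays. Samd9l, an antiviral restriction factor, was at 10.80 ± 0.15 and 10.90 ± 0.28 (0.11, limma adjusted p = 0.960).

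The PARP members add ADP-ribose to proteins, and only Parp14 was tested. Parp14 was at 8.65, 10.28, 9.89 and 10.09 in Vehicle and at 10.30, 10.53, 10.56, 10.55 and 10.16 in CSF1Ri tumours. CSF1Ri 5 lay below Vehicle 2, and the log2 fold change was 0.70 (SE 0.29, limma adjusted p = 0.591, and 0.34 without Vehicle 1). Parp9 was detected on at most 4 of 12 arrays by either probe and Parp12 on 5 of 12. Ifi35 was at 7.45, 8.03, 8.11 and 7.86 in Vehicle and at 8.36, 8.48, 8.19, 7.97 and 8.17 in CSF1Ri tumours, with overlap at CSF1Ri 4 (0.37, limma adjusted p = 0.618, and 0.23 without Vehicle 1). Lgals3bp, a secreted scavenger-receptor-like glycoprotein, was at 11.49 ± 0.11 and 11.69 ± 0.29 (0.20, limma adjusted p = 0.887). Rnf213, a giant ubiquitin ligase, and Xaf1, an antagonist of an apoptosis inhibitor, were detected on 0 of 12 arrays.

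The other genes of the pathway were read from 7 lists, and 0 of their tested genes passed the test in either direction. Of 17 type I and III interferon genes with a probe, 11 were detected on no array by their brightest probe, Ifnb1 and Ifna4 among them. Ifne was detected on 0 of 6 Vehicle and 4 of 6 CSF1Ri arrays, too few to be tested. The 3 tested ones, Ifna1, Ifna6 and Ifnab, had log2 fold changes of -0.02, -0.07 and 0.12. Ifng was at 5.37 ± 0.49 in Vehicle and 6.05 ± 0.50 in CSF1Ri tumours (0.68, limma adjusted p = 0.611, and 0.52 without Vehicle 1). Among the receptors, Ifnar2 was at 6.11 ± 0.24 and 5.64 ± 0.24 (-0.47, limma adjusted p = 0.428). Ifnar1 was detected on no array by its 1 probe, and Ifngr1 and Ifngr2 had 0.00 and -0.05. Ifnlr1 and Il10rb, chains of the type III receptor, had 0.04 and 0.12.

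Among the kinases and transcription factors, Irf7, the amplifier of type I interferon production, was at 5.63 ± 0.33 and 6.18 ± 0.34 (0.54, limma adjusted p = 0.510). Irf1 was at 11.77 ± 0.49 and 12.34 ± 0.18 (0.57, limma adjusted p = 0.495), Stat2 had 0.47 and Irf9 0.29. Without Vehicle 1 these were 0.37 for Irf1, 0.30 for Stat2 and 0.15 for Irf9. Irf5, a factor of myeloid cells, was at 6.65 ± 0.30 and 5.91 ± 0.68 (-0.74, limma adjusted p = 0.619). Irf2 and Irf3 had 0.15 and 0.01, and the kinases Jak1, Jak2 and Tyk2 had -0.03, 0.01 and -0.08. The Jak1 probe was near background, at 4.84 and 4.81, and was detected on 4 of 6 Vehicle and 3 of 6 CSF1Ri arrays. In this list of 10 the median was 0.08. In the feedback list, Socs1 had 0.28 and Ptpn6, the phosphatase of blood cells, -0.81 (limma adjusted p = 0.510), with a median of 0.09 over 6 genes. The nucleic acid sensing list, in which the endosomal receptor gene Tlr7 (-0.36), the adaptor gene Myd88 (0.21) and the kinase gene Tbk1 (0.10) had the smallest p, had a median of 0.01 over 8 genes.

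Of the interferon-induced genes outside the 40, all 24 tested had a log2 fold change above 0 (53.0% of all genes had), with a median of 0.46, and 9 were higher at a limma unadjusted p under 0.05 (3.73% of all genes were). Without Vehicle 1 the median was 0.19, with 22 of 24 above 0 and 6 higher at a limma unadjusted p under 0.05 (3.83% of all genes). Some passed the filter on dim probes mainly through CSF1Ri arrays, such as Cxcl11, detected on 3 of 6 Vehicle and 6 of 6 CSF1Ri arrays. Gbp3 was at 10.51 and 11.50 (0.99, limma adjusted p = 0.411, and 0.60 without Vehicle 1), Irgm1, a GTPase of vacuole defence, at 11.84 and 12.51 (0.67, limma adjusted p = 0.326), and Cxcl11, a chemokine for T cells, at 4.78 and 5.32 (0.55, limma adjusted p = 0.374). In 5 of the 24 all CSF1Ri tumours lay above all Vehicle tumours, against 1.46% of all genes. Vehicle 1 was the lowest tumour for 18 of the 24, against 11.5% of all genes. Many of the 24 are also induced by interferon gamma, and the list was written with earlier results of these tumours known.

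**Figure D4:**
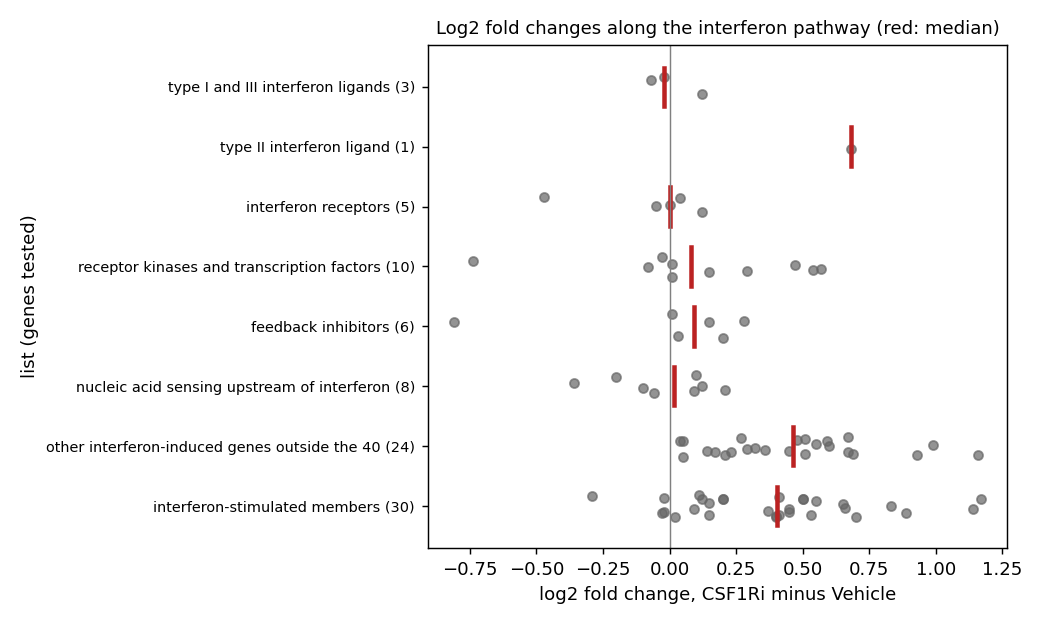
Log2 fold change (x axis, CSF1Ri minus Vehicle) of each tested gene in 7 lists of the interferon pathway and of the 30 tested members, with the list median as a red line. The medians of the 2 lists of induced genes are 0.46 and 0.40, and those of the ligand, receptor, kinase, feedback and sensing lists of more than 1 gene lie between -0.02 and 0.09.

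Markers of the cells that make or answer interferon did not pass the test as higher in any list, but 0% of all 9788 genes did. T cell markers had list means of 7.21 ± 0.42 and 7.67 ± 0.45 (0 of 6 tested passed). At a limma unadjusted p under 0.05, 2 of the 6 were higher (3.73% of all genes were), with a median log2 fold change of 0.50. NK cell markers had list means of 6.28 ± 0.54 and 6.80 ± 0.29 (0 of 2 tested passed, with Ncr1 and Eomes detected on no array). At that unadjusted level 1 of the 2 was higher, with a median of 0.52. Without Vehicle 1 the T cell and NK cell medians were 0.27 and 0.30, with 0 markers higher at that level. Of the plasmacytoid dendritic cell markers, Siglech was detected on 1 of 12 arrays and Ccr9 on 0 of 12, and 0 of the 5 tested passed. The acinar list mean was highest in CSF1Ri 5 (13.28), the CSF1Ri tumour with the lowest member mean (8.28), and lowest in CSF1Ri 1 (5.39), which had the highest (8.52). CSF1Ri 2, 3 and 4 had acinar means of 11.47, 10.42 and 8.53 and member means of 8.37, 8.51 and 8.50. All 11 tested acinar genes had a log2 fold change below 0, as did 4599 of all 9788 genes. Their median was -2.56, and 0 of them passed the test, where 0.215% of all genes were called lower. Among Vehicle tumours, the highest and lowest acinar means, 12.92 in Vehicle 2 and 10.71 in Vehicle 4, went with member means of 8.21 and 8.22. Vehicle 1 had an acinar mean of 12.36 and the lowest member mean (7.65). The part of these cells in the antiviral levels was not tested.

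**Figure D5:**
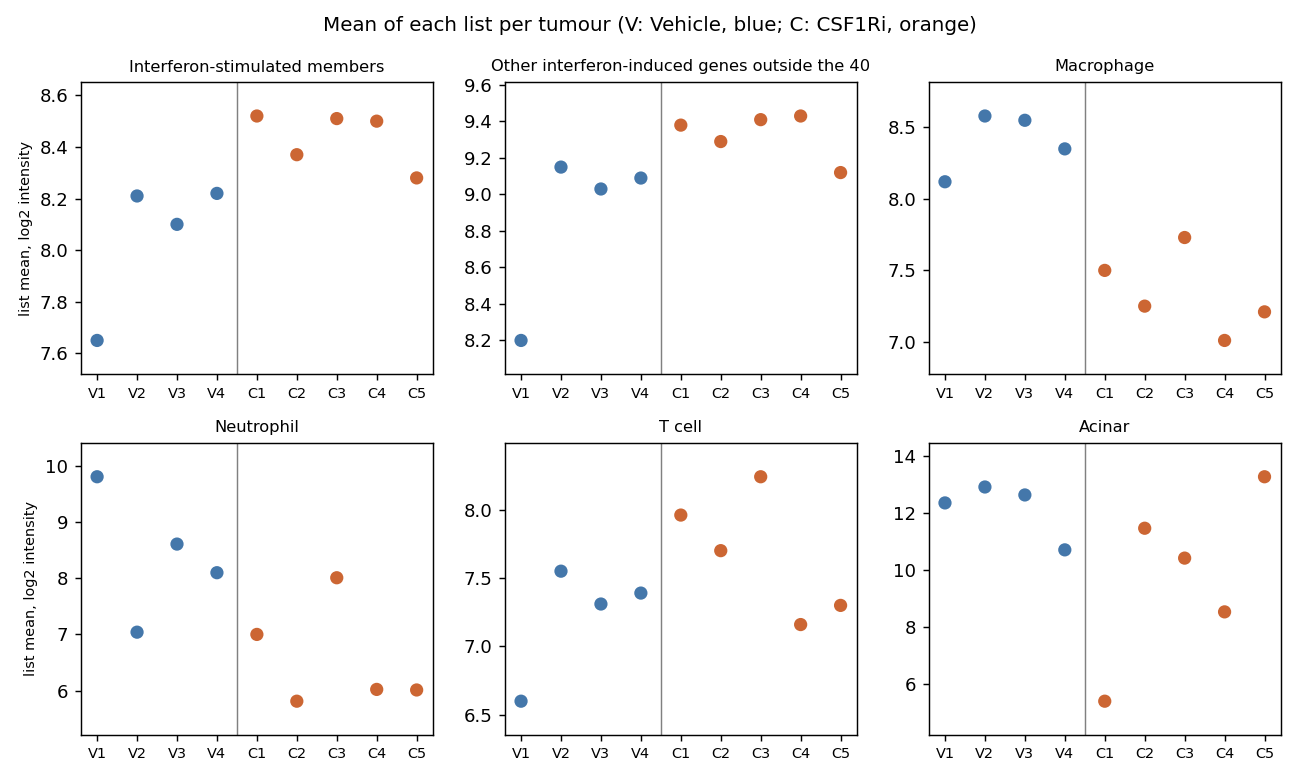
Mean normalised log2 intensity over the tested genes of 6 lists (y axis, its range set for each list) in the 4 Vehicle (V) and 5 CSF1Ri (C) tumours. Vehicle 1 is lowest for the members (7.65), the other interferon-induced genes (8.20) and T cell markers (6.60) and highest for neutrophil markers (9.81), and the macrophage means of the groups do not overlap.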

How the data were processed

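Total RNA of 9 tumours was amplified to biotin-labelled cRNA and hybridised to 12 arrays, per the labels' protocols. The authors deposited a background-subtracted probe intensity, not scaled between arrays, and a detection p-value per probe and array, per the file headers. A second deposited table holds the authors' intensity, each array multiplied by 1 factor (0.672 to 1.49). No scanning software or genome build is named by the labels.

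The unscaled intensities were normalised here by neqc of limma 3.58.1 under R 4.3.3 (offset 16, quantile normalization, log2), and repeat arrays were averaged. Probes with a detection p-value under 0.05 on every array of at least 4 tumours were kept (16606), and the brightest kept probe stood for a gene (9788 genes). Symbols came from the platform annotation. The groups were compared with limma (lmFit, eBayes, no covariate) with Benjamini-Hochberg adjustment over all 9788 genes and a threshold of 0.05. The fit was tested on simulated data. The labels do not state that each tumour came from its own mouse. The p-values set group differences against the spread between these tumour samples, and the number of tumours limits the precision.

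Members and lists were chosen with earlier results of these data known, so no list was tested. Values in every tumour are given for the 12 tested members with the smallest p, the 3 with the lowest log2 fold change and the 3 brightest. Other named genes are tested members, ligands, receptors and factors of the pathway lists, at most 3 further genes a list, and Csf1r and Cx3cr1. The replicate numbers are shared between the groups, and the tumours were treated as unpaired. Deviations from the group means correlated at -0.09, 0.03, 0.12 and 0.34 for numbers 1 to 4. With no value for truly paired tumours beside them, these correlations cannot settle whether the numbers pair the tumours. Alternatives covered background, scaling, filter, probe choice, repeat arrays, variance model, array brightness and leaving out each tumour.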

Additional observations from a re-analysis of the deposited data

Results flagged for a closer look

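In 3 of the 60 sets of values examined (30 members in 2 groups), 1 tumour stood apart from its group by Dixon's test, which chance gives in about 1 set of 20. All 3 concern Vehicle 1. Rsad2 was at 8.40 there, against 5.92 to 6.26 in the other Vehicle tumours. Zbp1 was at 6.12, against 7.38 to 7.54. Isg15 was at 7.23, against 8.59 to 8.83. Vehicle 1 was thus high for Rsad2 and low for Zbp1 and Isg15.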

How the results depend on the processing

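Over 23 alternatives, 0 members were called lower and at most 1 was called higher. That 1 was Usp18 with the tumour as a random block (log2 fold change 0.85, limma adjusted p = 0.0281), also with array brightness as a block, an alternative chosen after seeing the data (adjusted p = 0.0392), and Cmpk2 without CSF1Ri 2. Leaving out 1 tumour gave 0 to 1 members called higher, 8 to 15 higher at an unadjusted p under 0.05 (2.85% to 4.19% of all genes), 3 to 6 members with groups apart (1.86% to 3.25% of all genes), 0 to 1 genes called higher in all and 11 to 34 lower, and the median ran from 0.26 to 0.45. Over all alternatives it ran from 0.20 (no filter) to 0.52 (6 dimmer arrays), and it was 0.41 in the 6 brighter arrays. Groups were apart for 15 members in the dimmer and 13 in the brighter arrays, with 3 tumours a group, where 5.76% and 10.1% of all genes were. Vehicle 1, Vehicle 3 and CSF1Ri 1 are in both sets of arrays through their repeats, so the 2 sets are not independent of each other.

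Against 0 genes called higher and 21 lower, the counts were 2 higher with an offset of 50, 1 higher with 75th percentile scaling, 1 and 12 with no filter, 10 lower with detection in all 9 tumours, 1 higher with the mean of kept probes, 4 and 41 with the tumour as a random block, 2 higher with trend and robust eBayes, 1 lower in the dimmer and 11 lower in the brighter arrays, and 6 and 46 with the brightness block. The replicate number as a block (replicate block) gave 1 gene lower, with Ifitm1 at 0.04 and Rsad2 at 0.10, and a member median of 0.45. The cause of these shifts was not tested. The offset of 50 lowered values of dim genes, to 0.30 for Irf7, 0.36 for Ifng, 0.23 for Oas3, 0.19 for Mx2 and 0.18 for Rtp4.

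Signs changed in 7 members, all with main values between -0.03 and 0.15. Ifitm1 was at 0.01 with 75th percentile scaling and with the random block, 0.10 in the dimmer and 0.05 in the brighter arrays, and 0.00 with the brightness block. Ifitm2 was at -0.02 in the authors' values and -0.12 in the brighter arrays. With the mean of kept probes Oasl1 was at 0.11 and Trex1 at -0.04. In the dimmer arrays Rsad2 was at 0.13 and Samd9l at -0.10. Leaving out 1 tumour gave ranges of -0.16 to 0.09 for Oasl1, 0.00 to 0.30 for Trex1, -0.19 to 0.08 for Ifitm1, -0.07 to 0.10 for Ifitm2, -0.14 to 0.24 for Ifitm3 and -0.33 to 0.56 for Rsad2. The other 23 tested members kept their sign in every alternative that tested them. The alternatives followed the brightest probe of a gene or the mean of its kept probes, not its dimmer probes singly. Dhx58, at -0.29 by its brightest probe, had 0.01 and 0.13 by its other kept probes. The call of Csf1r was lost in 12 of 23 alternatives. A stricter detection p under 0.01 leaves 27 members to test.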
